A study of Mus musculus with 4 samples.

Results

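The serpins are a superfamily of proteins that share one fold and mostly inhibit serine proteases. The members described here are the 48 genes whose single symbol in the probe-to-gene table of the array begins with Serpin, out of 19938 named genes. Each of the 48 was read by 1 probe set. By clade letter they comprise 15 Serpina, 24 Serpinb, 2 Serpinf, 2 Serpini and 1 each of Serpinc, Serpind, Serpine, Serping and Serpinh genes. Other genes of the superfamily were not analysed here.

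RNA of whole ear skin from 8-week-old female mice was read on 4 arrays of the Affymetrix type Mouse Gene 1.0 ST, and each group holds 1 of them. The groups were Traf6EKO mice (epithelial knockout of Traf6, here EKO) with imiquimod (IMQ), EKO mice without it, Traf6f/f mice (floxed Traf6, here f/f) with IMQ and f/f mice without it. IMQ, a TLR7 agonist that provokes psoriasis-like inflammation in mouse skin, was given as a cream to the ear at 10 mg per day for 2 days. The sources used here do not name the driver that deletes Traf6 in the EKO mice, nor any cream for the untreated ears. TRAF6 is an adaptor that relays signals of Toll-like, IL-1 and IL-17 receptors. The design text gives n = 2, and pooling of 2 mice on each array is neither stated nor denied. No value below therefore has a replicate error, no p-value is given, and the number of arrays limits the precision.

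An inhibitory serpin offers a protease an exposed loop as bait. Once the loop is cut, the serpin springs into a new shape and traps the protease for good, so each molecule acts once. Clade B serpins lack a classical signal peptide and work mainly inside cells, several of them in the epidermis, while most of the other clades are secreted. Some members have lost protease inhibition and act as chaperones or hormone carriers.

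Values are log2 probe set levels as deposited, and each difference is a difference of such levels. A gene entered a comparison when its level reached the floor, the median of all named genes (6.93 to 6.98), on at least 1 of the arrays compared, and it was counted at a fold of at least 2. Levels of different probe sets were not set against each other, because probes differ in their response. All 7 keratinocyte markers reached the floor on each array. Traf6, by contrast, was not lower on the EKO arrays, at 9.35 in EKO IMQ, 9.65 in EKO untreated, 9.30 in f/f IMQ and 9.51 in f/f untreated skin. Cells that keep Traf6 are part of a whole ear, and the sources used here do not say which exons the probes or the deletion cover, so this is no check of the labels. Genotype differences below are those between the array labels EKO and f/f. The same skin differed in its cell markers. The mean level of 10 stressed-keratinocyte markers was 10.20 in EKO IMQ, 8.20 in EKO untreated, 11.73 in f/f IMQ and 7.63 in f/f untreated skin. The mean of 11 neutrophil markers was 6.09, 5.63, 7.64 and 5.52 in the same order, with 7, 9, 4 and 10 of them below the floor. Both lists hold S100a8 and S100a9, at 11.18 and 11.47 on the f/f IMQ array, so their means are not separate observations. The mean of 6 adipocyte markers was 9.42, 9.99, 8.87 and 10.52, and of 8 hair follicle markers 7.99, 7.39, 7.0 and 7.94. Whether these shifts in the tissue play a part in the Serpin differences was not tested. In such bulk samples, fewer cells of a type and less RNA per cell cannot be told apart.

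Of the 48 Serpin genes, 20 reached the floor on at least 1 array. They were 13 Serpinb genes, 4 Serpina genes (Serpina3b, Serpina3n, Serpina9 and Serpina12), Serpinf1, Serping1 and Serpinh1. The other 28 lay between 3.62 and 6.54 on all arrays, and their IMQ differences ran from -0.18 to 0.32 in EKO and from -0.32 to 0.34 in f/f. With IMQ, 2 of the 20 were at least 2-fold higher in EKO skin, where 0.671% of 10285 genes were, and 1 was at least 2-fold lower, against 0.0972% of all genes. In f/f skin 3 of 20 were at least 2-fold higher, where 3.82% of 10548 genes were, and 2 were at least 2-fold lower, against 2.63%. The median difference of the 20 was -0.02 in EKO and 0.07 in f/f, close to the medians over all genes of -0.01 and 0.01. The 5 members counted were each below the floor on 1 of the 2 arrays compared, where signal nears background and folds are imprecise; of the 15 at or above it on both arrays, 0 passed 2-fold in EKO and 0 in f/f. Genes reached the floor partly by being high on 1 array, so these shares describe the arrays and support no statement on the family.

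**Figure D1:**
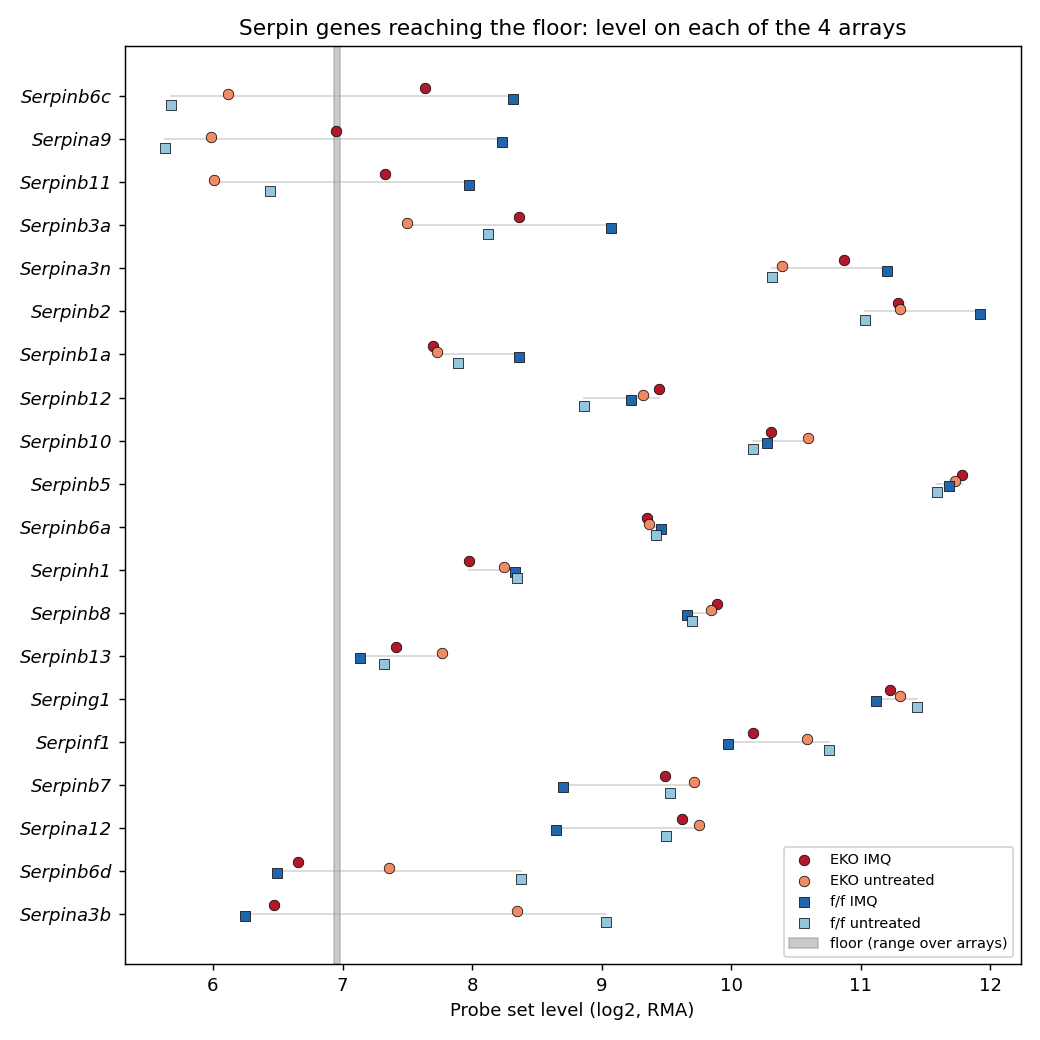
Levels (log2, horizontal axis) of the 20 Serpin genes that reached the floor, ordered from top to bottom by the IMQ difference in f/f; circles are EKO arrays, squares f/f arrays, darker symbols IMQ, and the grey band spans the floors of the 4 arrays (6.93 to 6.98). Serpinb6c and Serpinb11 cross the band upward with IMQ, and Serpinb6d and Serpina3b cross it downward. Serpina9 crosses it upward in f/f, while its EKO IMQ level lies within the band.

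The largest increase among the members was in Serpinb6c, one of several mouse copies related to Serpinb6a. Its level was 7.64 in EKO IMQ and 6.12 in EKO untreated skin, and 8.31 in f/f IMQ and 5.68 in f/f untreated skin. Both IMQ arrays lay above both untreated arrays. It was 2.86-fold higher with IMQ in EKO (log2 difference 1.52) and 6.22-fold higher in f/f (2.64), where 52 of 10548 genes had a larger difference. Serpinb6d, a copy from the same gene cluster on chromosome 13, ran the other way. Its level was 6.66 in EKO IMQ and 7.36 in EKO untreated skin, and 6.50 in f/f IMQ and 8.38 in f/f untreated skin. It was 1.63-fold lower with IMQ in EKO (-0.70) and 3.69-fold lower in f/f (-1.88). Its level in untreated skin was already 2.03-fold lower in EKO (-1.02 relative to f/f). Of 17 members considered without IMQ it alone passed 2-fold downward, against 0.324% of 10200 genes, and 0 passed it upward, against 0.0686%. With arrays scaled on their medians the Serpinb6d value came to -0.99, short of 2-fold. Serpinb6a, which inhibits cathepsin G among other proteases, hardly differed, with 9.35 and 9.36 in EKO and 9.46 and 9.42 in f/f skin with and without IMQ. Serpinb6b and Serpinb6e stayed below the floor, with IMQ differences of -0.04 and -0.06 in EKO and 0.18 and -0.24 in f/f.

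The start regions of both genes are printed because these genes of 1 cluster moved in opposite directions. Each line holds 250 bases before and 50 after the start annotated by RefSeq on GRCm38.p6, read 5′ to 3′ on the gene's strand. Serpinb6c lies at chr13:33905142-33905441 (minus strand) and Serpinb6d at chr13:33661155-33661454 (plus strand). Capitals mark matches on either strand to the AP-1 motif TGANTCA, the NF-kB motif GGGNNNNNCC, the STAT motif TTCNNNGAA, the C/EBP motif TTGCNNAA or the TATA motif TATAAA, some of which can overlap.
Serpinb6c: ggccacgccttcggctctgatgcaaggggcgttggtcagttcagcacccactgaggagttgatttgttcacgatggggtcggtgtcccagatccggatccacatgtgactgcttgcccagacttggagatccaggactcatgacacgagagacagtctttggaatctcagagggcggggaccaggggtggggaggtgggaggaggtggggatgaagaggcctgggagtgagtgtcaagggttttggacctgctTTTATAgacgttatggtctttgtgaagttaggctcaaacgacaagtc
Serpinb6d: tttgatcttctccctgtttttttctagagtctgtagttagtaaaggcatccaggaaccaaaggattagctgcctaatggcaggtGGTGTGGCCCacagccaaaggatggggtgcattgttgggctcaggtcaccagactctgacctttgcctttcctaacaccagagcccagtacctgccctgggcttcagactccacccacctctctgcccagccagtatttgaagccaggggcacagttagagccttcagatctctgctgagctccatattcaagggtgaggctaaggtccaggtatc
In a global alignment the pair shared 58.3% of the 300 bases, close to the median of 58.0% over 532 promoter pairs of different clades. Serpinb6d shared 73.0% with Serpinb6e, which stayed below the floor. The Serpinb6c window held a TATA match only just after the annotated start, and the Serpinb6d window an NF-kB match 166 bases before it.

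Serpina9, known in human as centerin of germinal-centre B cells, also crossed the floor with IMQ. In EKO it did so only just, at 6.9504 against a floor of 6.9449. Its level was 6.95 in EKO IMQ and 5.99 in EKO untreated skin, and 8.23 in f/f IMQ and 5.63 in f/f untreated skin. The IMQ difference was 1.95-fold in EKO (0.96) and 6.06-fold in f/f (2.60). With IMQ its EKO level was 2.43-fold below that of f/f (-1.28). Of 18 members considered with IMQ it alone passed 2-fold downward, against 0.875% of 10282 genes, and 0 passed it upward, against 0.418%. That comparison shares the f/f IMQ array with the IMQ difference in f/f, so the values are not separate evidence.

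Serpinb11, whose mouse form inhibits trypsin-like proteases, was higher with IMQ at similar size in both genotypes. Its level was 7.33 in EKO IMQ and 6.01 in EKO untreated skin, and 7.98 in f/f IMQ and 6.44 in f/f untreated skin. The folds were 2.49 in EKO (1.32) and 2.91 in f/f (1.54), so that the EKO difference was 85.5% of the f/f difference. The same share was 57.5% for Serpinb6c, 37.0% for Serpina9, 37.2% for Serpinb6d and 67.2% for Serpina3b. Shares were taken only for members that passed 2-fold in f/f, a choice that by itself favours low shares. They therefore do not show a weaker response in EKO. Serpinb3a, a mouse counterpart of the human squamous cell carcinoma antigens, lies in the same chromosome 1 cluster. Its level was 8.36 in EKO IMQ and 7.49 in EKO untreated skin, and 9.07 in f/f IMQ and 8.12 in f/f untreated skin. It stayed just short of 2-fold, at 1.83-fold higher in EKO (0.87) and 1.92-fold higher in f/f (0.94). Only 95 of 10285 genes had a larger IMQ difference in EKO, against 448 of 10548 in f/f. With IMQ, the EKO minus f/f difference was -0.65 for Serpinb11 and -0.71 for Serpinb3a. Without IMQ it was -0.63 for Serpinb3a, while Serpinb11 was below the floor in both genotypes and was not compared. Serpinb3c and Serpinb3d, copies of Serpinb3a between it and Serpinb11, stayed below the floor and had IMQ differences of 0.07 and 0.32 in EKO and 0.12 and -0.02 in f/f.

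Serpinb2, plasminogen activator inhibitor type 2, which is made by differentiating keratinocytes, was higher with IMQ in f/f skin, whereas its levels with and without IMQ were nearly equal in EKO skin. Its level was 11.29 in EKO IMQ and 11.31 in EKO untreated skin, and 11.92 in f/f IMQ and 11.04 in f/f untreated skin. The IMQ difference was -0.01 in EKO and 0.88 in f/f (1.84-fold), and no test of the gap between genotypes can be had from 1 array a group. Serpinb1a, which inhibits neutrophil elastase, proteinase 3 and cathepsin G, was likewise highest on the f/f IMQ array. Its level was 7.69 in EKO IMQ and 7.73 in EKO untreated skin, and 8.36 in f/f IMQ and 7.89 in f/f untreated skin, with IMQ differences of -0.03 and 0.47 in that order of genotypes. The means of the neutrophil and stressed-keratinocyte lists, which share S100a8 and S100a9, were also highest on the f/f IMQ array, as given above. Mmp9 of the neutrophil list was not highest there. The target genes Elane, Prtn3 and Ctsg stayed below the floor on all arrays. They had IMQ differences of -0.02, 0.14 and -0.09 in EKO and -0.04, -0.12 and 0.01 in f/f. Which cells account for the Serpinb1a and Serpinb2 differences was not tested.

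The windows of the 3 chromosome 1 genes are printed because they were higher with IMQ to a like extent in f/f (Serpinb3a, Serpinb2) or more (Serpinb11) but differed in EKO. Serpinb11 lies at chr1:107362064-107362363 (plus strand), Serpinb3a at chr1:107052254-107052553 (minus strand) and Serpinb2 at chr1:107511173-107511472 (plus strand), with capitals as above.
Serpinb11: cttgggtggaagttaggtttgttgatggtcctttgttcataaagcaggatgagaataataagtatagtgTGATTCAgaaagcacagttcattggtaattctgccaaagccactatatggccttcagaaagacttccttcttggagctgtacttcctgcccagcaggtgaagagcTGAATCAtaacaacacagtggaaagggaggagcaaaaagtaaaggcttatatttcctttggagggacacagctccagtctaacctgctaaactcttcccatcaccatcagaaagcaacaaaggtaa
Serpinb3a: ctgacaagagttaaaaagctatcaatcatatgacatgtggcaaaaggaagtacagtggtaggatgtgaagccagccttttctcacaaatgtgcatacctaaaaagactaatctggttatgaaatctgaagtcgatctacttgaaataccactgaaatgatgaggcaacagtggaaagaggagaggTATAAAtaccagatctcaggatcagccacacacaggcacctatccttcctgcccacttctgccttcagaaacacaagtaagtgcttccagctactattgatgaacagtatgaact
Serpinb2: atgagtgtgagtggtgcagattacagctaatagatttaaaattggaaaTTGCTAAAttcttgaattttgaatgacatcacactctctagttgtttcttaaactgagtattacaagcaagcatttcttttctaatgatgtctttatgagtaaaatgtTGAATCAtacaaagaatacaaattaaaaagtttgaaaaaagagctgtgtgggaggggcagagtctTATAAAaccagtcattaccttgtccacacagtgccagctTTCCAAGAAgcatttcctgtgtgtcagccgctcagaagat
Serpinb11 held AP-1 matches 181 and 76 bases before the start and Serpinb2 held 1 at 94 bases, while the Serpinb3a window held none. A TATA match began 29 bases before the start of Serpinb2 and 65 before that of Serpinb3a. Of 41 members with a window, 9 (22.0%) held an AP-1 match, as did 7.81% of 32851 windows of the same length. For the NF-kB motif these shares were 34.2% and 50.8%, for STAT 12.2% and 8.30%, for C/EBP 24.4% and 10.8%, and for TATA 26.8% and 13.6%. Each member counted with its first listed window, whereas the 32851 are all listed windows, so the shares are not strictly alike. Copies of one gene share sequence, and a match is a description of these letters only.

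Serpina3b showed the largest decrease of the family. Its level was 6.47 in EKO IMQ and 8.35 in EKO untreated skin, and 6.25 in f/f IMQ and 9.04 in f/f untreated skin, so that both IMQ arrays lay below both untreated arrays. It was 3.67-fold lower with IMQ in EKO (-1.88), the lowest of all 10285 genes considered, and 6.92-fold lower in f/f (-2.79), where 2 genes were lower still. Serpina3n, its neighbour among the analysed members of the chromosome 12 cluster, is an acute-phase inhibitor related to human antichymotrypsin and was higher with IMQ. Its level was 10.87 in EKO IMQ and 10.39 in EKO untreated skin, and 11.20 in f/f IMQ and 10.31 in f/f untreated skin. That is 1.40-fold in EKO (0.48) and 1.85-fold in f/f (0.89). The mouse Serpina3 genes are close copies, so a probe set may read more than its own gene, and the same holds for the Serpinb6 and Serpinb3 copies.

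The windows of this pair are printed because the copies again moved in opposite directions. Serpina3n lies at chr12:104406458-104406757 (plus strand) and Serpina3b at chr12:104127746-104128045 (plus strand).
Serpina3n: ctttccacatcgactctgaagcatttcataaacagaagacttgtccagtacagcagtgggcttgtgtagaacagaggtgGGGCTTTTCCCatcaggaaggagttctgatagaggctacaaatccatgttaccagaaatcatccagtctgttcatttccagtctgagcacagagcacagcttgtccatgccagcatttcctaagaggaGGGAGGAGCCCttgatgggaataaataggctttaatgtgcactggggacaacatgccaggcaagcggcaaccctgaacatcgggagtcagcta
Serpina3b: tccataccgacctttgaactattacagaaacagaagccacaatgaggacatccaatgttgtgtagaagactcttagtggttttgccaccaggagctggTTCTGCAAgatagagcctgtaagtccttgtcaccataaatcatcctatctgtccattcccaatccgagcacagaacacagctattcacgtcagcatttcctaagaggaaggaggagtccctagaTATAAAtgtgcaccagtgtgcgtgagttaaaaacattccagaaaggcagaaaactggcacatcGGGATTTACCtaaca
They shared 72.3% of the 300 bases, well above the median of 58.0% for 288 pairs within a clade. Serpina3b held a TATA match 28 bases before the start and a C/EBP match at 152 bases, and the Serpina3n window held neither. Serpina3n held NF-kB matches on both strands near 171 and 43 bases before the start, and Serpina3b held 1 after it.

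**Figure D2:**
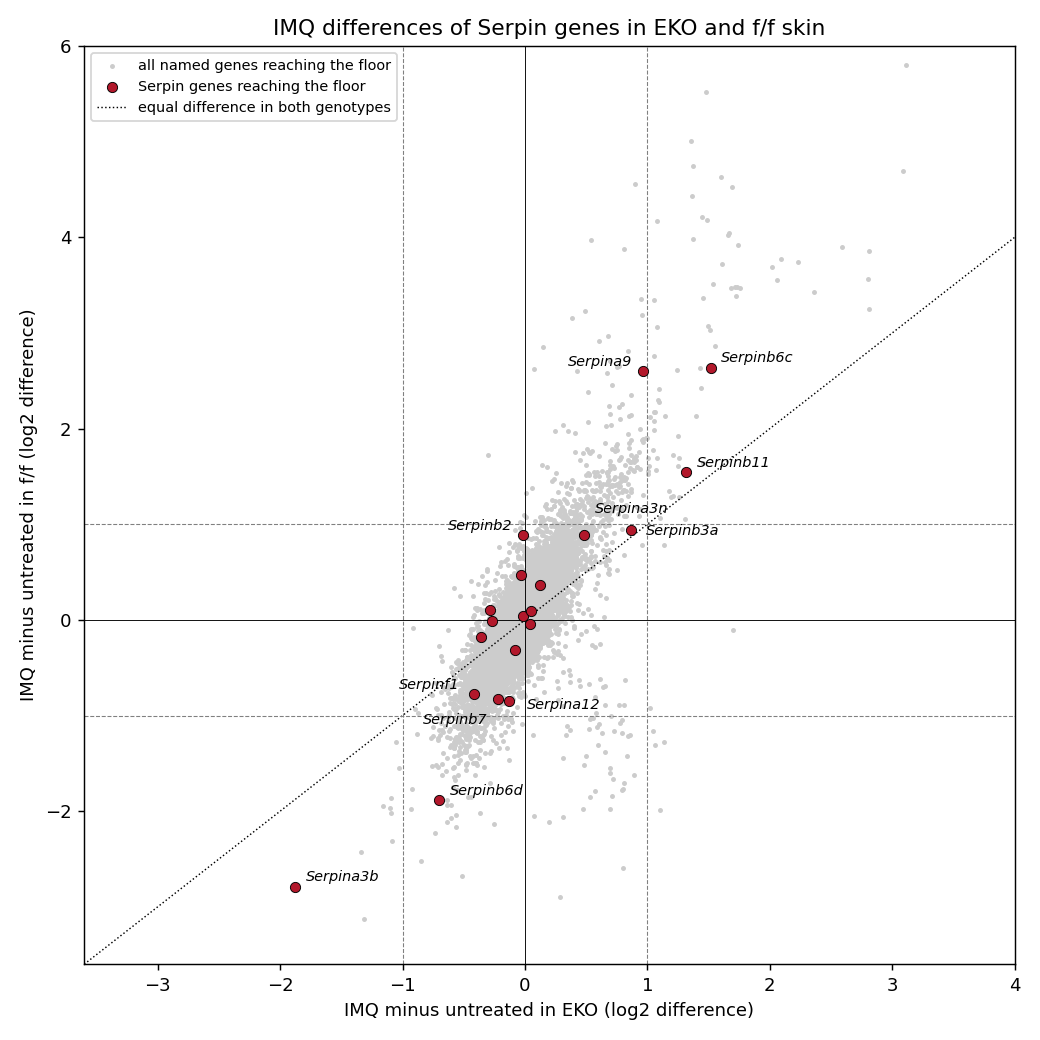
IMQ difference (log2) in EKO skin on the horizontal axis and in f/f skin on the vertical axis; grey points are all named genes reaching the floor, red points the 20 Serpin genes, dashed lines 2-fold and the dotted line equal differences. Serpinb11 and Serpinb3a lie near the dotted line, Serpinb2 lies on the vertical zero line at 0.88 in f/f, and Serpina3b is at the far lower left.

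Members lower with IMQ at less than 2-fold included secreted regulators and epidermal inhibitors. Serpina12 (vaspin), an adipokine whose human form inhibits kallikrein 7, was 9.62 in EKO IMQ and 9.75 in EKO untreated skin, and 8.65 in f/f IMQ and 9.50 in f/f untreated skin. The f/f IMQ array stood lowest, with IMQ differences of -0.13 in EKO and -0.85 in f/f. Klk7, which encodes that kallikrein, differed by 0.28 in EKO and 0.67 in f/f. Serpinb7, whose loss in human causes a palmoplantar keratosis, was 9.49 in EKO IMQ and 9.71 in EKO untreated skin, and 8.70 in f/f IMQ and 9.53 in f/f untreated skin. Its differences were -0.22 in EKO and -0.83 in f/f. Serpinf1, the secreted pigment epithelium-derived factor that limits vessel growth, was 10.17 in EKO IMQ and 10.58 in EKO untreated skin, and 9.98 in f/f IMQ and 10.75 in f/f untreated skin. Its IMQ difference was -0.41 in EKO and -0.78 in f/f. Alongside it, adipocyte markers had medians of -0.53 in EKO and -1.66 in f/f and fibroblast markers of -0.25 and -0.30. Medians were likewise negative for skeletal muscle (-0.25 and -0.87), cartilage (-0.50 and -0.58), endothelial, macrophage, mast cell and T or NK cell markers. They were positive in both genotypes for the keratinocyte and neutrophil lists, and of mixed sign for hair follicle markers. Which cells account for the Serpinf1 difference was not tested. Serping1, the inhibitor of the first complement component, was 11.23 in EKO IMQ and 11.30 in EKO untreated skin, and 11.12 in f/f IMQ and 11.43 in f/f untreated skin, with differences of -0.08 and -0.31.

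The remaining clade B genes stayed well short of 2-fold with IMQ. Serpinb5 (maspin), a keratinocyte serpin that does not inhibit proteases, was 11.78 in EKO IMQ and 11.73 in EKO untreated skin, and 11.68 in f/f IMQ and 11.59 in f/f untreated skin. Serpinb12, an inhibitor of trypsin-like proteases, differed by 0.13 in EKO and 0.36 in f/f. Serpinb13 (hurpin), whose human form inhibits cathepsins K and L, was lower with IMQ in both genotypes, by -0.36 in EKO, where 617 of 10285 genes were lower still, and -0.18 in f/f. Serpinb10 differed by -0.28 and 0.10, and Serpinb8, whose human form inhibits furin, by 0.04 and -0.04. Serpinb9, the intracellular inhibitor of granzyme B, lay below the floor on all arrays, at 5.76 in EKO IMQ and 5.79 in EKO untreated skin, and 5.98 in f/f IMQ and 6.30 in f/f untreated skin. Gzmb, its target, did not reach the floor either.

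Between genotypes, 6 of the 20 members had both EKO arrays above both f/f arrays, as did 12.5% of 10646 genes. They were Serpina12 and the chromosome 1 genes Serpinb5, Serpinb8, Serpinb10, Serpinb12 and Serpinb13. Their differences with IMQ were 0.97, 0.10, 0.23, 0.04, 0.22 and 0.28 in that order, and without IMQ 0.25, 0.14, 0.15, 0.42, 0.45 and 0.45. Another 3 (Serpinb1a, Serpinb6a and Serpinh1) had both EKO arrays below both f/f arrays, against 9.64% of all genes. For the IMQ arrays set against the untreated arrays, 5 of 20 members were higher without overlap, against 32.2% of all genes, and 5 lower, against 34.9%. Absence of overlap with IMQ was thus common among all genes.

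The IMQ difference in EKO minus that in f/f passed 2-fold in 3 of the 20 members. It was -1.64 for Serpina9 and -1.12 for Serpinb6c, where 1.18% of 10646 genes were at least 2-fold lower. It was 1.18 for Serpinb6d, where 1.06% of genes were at least 2-fold higher. When the floor had to be reached on every array, the count became 0. Levels without IMQ enter these values, and neither untreated array reached the floor for Serpina9 or Serpinb6c, where differences are imprecise. Serpinb6d was above it on both, at -1.02 in EKO relative to f/f.

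**Figure D3:**
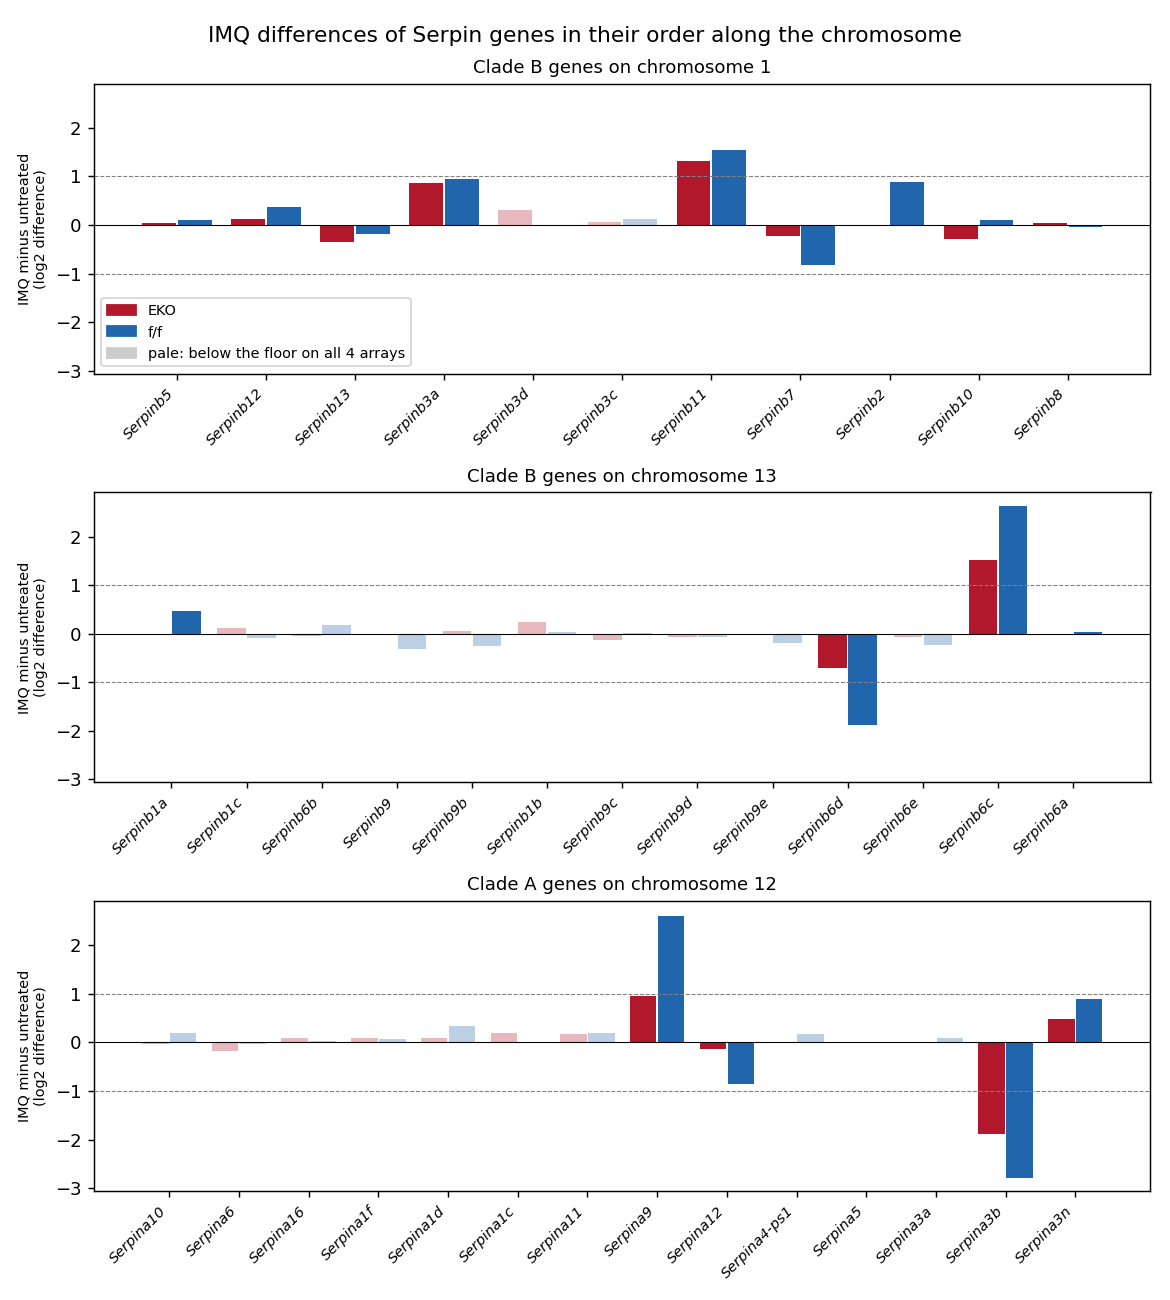
IMQ differences (log2, vertical axis) of the clade B genes on chromosomes 1 and 13 and the clade A genes on chromosome 12, left to right in their order along the chromosome (spacing not to scale); red bars are EKO, blue bars f/f, pale bars genes below the floor on all 4 arrays and dashed lines 2-fold. Serpinb6d and Serpinb6c, and Serpina3b and Serpina3n, point in opposite directions in both genotypes.

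Many members known mainly from plasma stayed below the floor on all arrays, unlike Serping1 and Serpina3n, which lay above it on each. The 11 Serpina genes below the floor, among them genes for antitrypsin (Serpina1c and Serpina1d), the hormone carriers for corticosteroids (Serpina6) and thyroxine (Serpina7) and the protein C inhibitor (Serpina5), lay between 3.64 and 5.85. Serpinc1 (antithrombin) lay between 5.27 and 5.34, Serpind1 (a heparin-dependent thrombin inhibitor) between 5.56 and 5.71 and Serpinf2 (antiplasmin) between 6.40 and 6.54. Of 7 liver markers, 6 lay below the floor on each array. Serpine3 and the 2 Serpini genes also stayed below it. Serpinh1, the collagen chaperone of the endoplasmic reticulum, was 7.97 in EKO IMQ and 8.25 in EKO untreated skin, and 8.33 in f/f IMQ and 8.35 in f/f untreated skin. Its IMQ difference was -0.27 in EKO and -0.01 in f/f. The 16 collagen and collagen-modifying genes above the floor had medians of -0.19 in EKO and -0.05 in f/f, and 0 of 16 passed 2-fold in either genotype, against 0.768% of all genes in EKO and 6.45% in f/f.

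Among the proteases that serpins and other inhibitors control, the epidermal serine proteases stood higher with IMQ. Of these, 5 of 15 were at least 2-fold higher in EKO (median 0.54), against 0.671% of all genes, and 8 of 16 in f/f (median 0.97), against 3.82%. By the difference in f/f, the kallikreins Klk6 and Klk13 led, at 1.73 and 1.68 in EKO and 3.48 and 3.47 in f/f, followed by Prss27 (1.08 in EKO, 3.06 in f/f) and Klk9 (1.05 in EKO, 2.17 in f/f). In EKO, Klk10 (1.15), named after its value was seen, stood above Prss27 and Klk9. Levels without IMQ enter these differences. The median EKO minus f/f difference of the list was 0.43 without IMQ and -0.07 with IMQ. For Klk6, Klk13, Prss27 and Klk9 it was 1.15, 0.80, 0.60 and 0.70 without IMQ and -0.59, -0.99, -1.39 and -0.42 with it. Inhibitors of other families were at least 2-fold higher in 4 of 20 cases in EKO (median 0.07), against 0.671% of all genes, and in 8 of 22 in f/f (median 0.65), against 3.82%. All 8 were below the floor on the f/f untreated array, and the 4 except Stfa3 on the EKO untreated array. Genes below it there entered through the IMQ array alone, so the shares support no statement on these inhibitors. Timp4 alone among them was at least 2-fold lower in f/f (-1.03), as were 2.63% of all genes. By the difference in f/f they were led by the stefins Csta3 (1.44 in EKO, 4.21 in f/f), Stfa3 (2.59 in EKO, 3.90 in f/f) and Stfa2 (2.02 in EKO, 3.69 in f/f) and by Spink7 (2.81 in EKO, 3.25 in f/f). Csta3 was below the floor on both EKO arrays and was not among the 20 considered in EKO. Cathepsins and other cysteine proteases had medians of 0.03 in EKO and 0.15 in f/f. In f/f, 1 of 15 was at least 2-fold higher, Casp14 (0.94 in EKO, 1.58 in f/f), against 3.82% of all genes. Another 1 was at least 2-fold lower in f/f, Ctso (-0.58 in EKO, -1.11 in f/f), against 2.63%. Plasminogen and coagulation genes had medians of -0.03 and 0.05. Of 8 considered in f/f, F13a1 alone passed 2-fold (-0.47 in EKO, -1.20 in f/f), where 2.63% of all genes were at least 2-fold lower. The urokinase gene Plau, whose product Serpinb2 inhibits, differed by 0.11 in EKO and 0.44 in f/f, and its receptor gene Plaur by 0.01 and 0.76. Plaur reached the floor only on the f/f IMQ array, so it was not considered in EKO and its f/f difference is imprecise. Only 3 of 16 immune-cell serine proteases reached the floor, the mast cell genes Cma1, Mcpt4 and Tpsb2, and their median was -0.16 in EKO, where 2 were considered, and -0.44 in f/f. The lists share no gene with the Serpin family, and differences between the lists were not tested. They were chosen with earlier results of these data known, so their shares beside those of all genes are descriptions only.

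**Figure D4:**
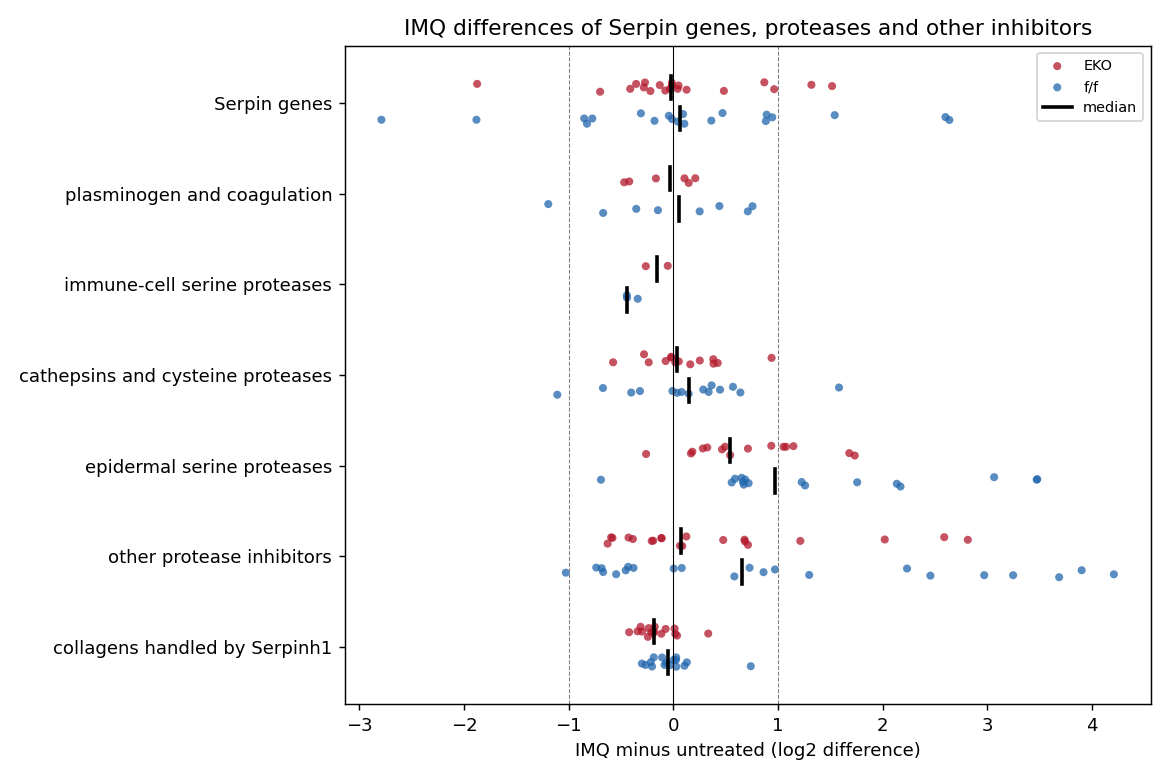
IMQ differences (log2, horizontal axis) of the Serpin genes and of 6 lists of proteases, other inhibitors and collagen genes; each point is a gene above the floor in that comparison, red for EKO and blue for f/f, black bars are medians and dashed lines 2-fold. Serpin points spread to both sides of 0, while most epidermal serine proteases lie to the right of it.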

How the data were processed

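The authors made the deposited log2 levels with RMA, per the submitters' processing notes, which state no version. RMA corrects background, equalises the distributions of the arrays and summarises the probes of a set. It therefore hides a shift shared by most genes and compresses differences between weak signals. The log2 scale was read from the values. Of 35556 probe sets, 21789 had 1 gene symbol in the platform annotation; the probe set with the highest mean stood for each of 19938 genes. All 48 Serpin symbols matched RefSeq names (GRCm38.p6) by Entrez identifier.

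Groups came from the sample titles. Log2 differences, the floor and counts at a fold of 2 were computed with Python 3.11.15, numpy 2.4.6 and pandas 2.3.3, figures with matplotlib 3.10.9, and other scalings with limma 3.58.1 in R 4.3.3. Members get their values in full where they passed a fold of 2, were among the 3 of highest mean level, or reached the floor and a sentence needs them; from the fixed lists at most the 4 largest IMQ differences in f/f are named, plus known targets. The counting was tested on simulated data, with changes well past 2-fold put into genes at or above the floor. That checks the code, not members near 2-fold or near the floor. The members and lists were chosen with earlier results of these data known. Promoter windows came from RefSeq for 41 members, the first listed for each gene, and were aligned globally over their 300 bases.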

Additional observations from a re-analysis of the deposited data

Results flagged for a closer look

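Among the 20 Serpin genes that reached the floor, 5 had IMQ differences of opposite sign in the genotypes. The difference between genotypes was not tested, since each rests on 1 array a group. Serpinb10 differed by -0.28 in EKO and 0.10 in f/f, Serpinb1a by -0.033 in EKO and 0.47 in f/f, and Serpinb2 by -0.0149 in EKO and 0.88 in f/f. Serpinb6a differed by -0.0145 in EKO and 0.042 in f/f, and Serpinb8 by 0.040 in EKO and -0.044 in f/f. In all of these at least 1 value is small, and under other scalings the f/f value of Serpinb6a and either value of Serpinb8 changed sign.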

How the results depend on the processing

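No paired analysis was possible because each group holds 1 array. Of 40 recomputed counts of Serpin members past 2-fold in either direction, 31 were within 1.5 times the reported ones. When the floor had to be reached on every array of a comparison, the counts became 0 for IMQ in EKO, 0 for IMQ in f/f and 0 for the difference of the IMQ differences, because each member counted for IMQ was below the floor on 1 of its arrays; signal there approaches background, so these folds are imprecise. The reported counts were 3, 5 and 3. At 1.5-fold they became 6 for IMQ in EKO, 11 for IMQ in f/f, 8 for EKO against f/f with IMQ, 3 for EKO against f/f untreated and 7 for the difference of the IMQ differences; the share of all genes counted then was 3.47%, 19.7%, 4.64%, 1.71% and 8.28%. With arrays scaled on their medians the count for EKO against f/f untreated became 0 in place of 1 (Serpinb6d at -0.99). Quantile and cyclic loess scaling moved no count past 1.5 times. Nor did no floor, the mean of probe sets or the probe sets with several Serpin symbols, but these could hardly do so and are no check. Each member has 1 probe set, and the probe sets with several symbols lie below the floor. The 28 members below the floor had IMQ differences of no more than 0.34 in size. Of 400 recomputed values of the 20 members, 399 stayed on the same side of 2-fold, and 10 changed sign, none above 0.092 in size. The 400 include the values under the mean of probe sets, which could not differ from the reported ones.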

Other observations

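A further 5 probe sets carry several symbols that are all Serpin genes and were left out of the comparisons. The 2 that read the Serpina1 copies lay between 4.26 and 5.62, and the 3 that read the Serpinb9d, Serpinb9e, Serpinb9f and Serpinb9g copies between 4.14 and 4.46, all below the floor on the 4 arrays.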
